A study of Homo sapiens with 20 samples.

Results

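The transcripts described here encode the subunits of Mediator and of the TBP-associated factors (TAFs), the cofactors that join RNA polymerase II to its promoters. Members were taken by gene symbol alone, as MED or TAF followed by a number, with TBP, CDK8 and CCNC added, and the rule uses no measured value. The rule took 144 of 54675 probe sets, which stand for 54 of 19775 genes, and 51 of these genes were bright enough to be tested among 14478 genes in all. The single-symbol probe sets of MED24, TAF1L and TAF7L lay below the signal filter, although a MED24 probe set that carries a further symbol had signals of 104.3 to 285.6. In addition, MED6, MED25 and TAF9 had no probe set with a single gene symbol and were not analysed here as members.

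U2OS cells, an osteosarcoma line grown in DMEM with 10% FCS, were hybridised to 20 arrays, 1 array for each of 5 conditions at each of 4 times. The conditions were control, hypoxia at less than 0.1% oxygen, tunicamycin at 2.5 ug/ml, emetine at 100 ug/ml, and cells carrying a hairpin against UPF1 (labelled shRent1). The stresses ran for 3 hr before DRB, the labels do not say whether they went on during the DRB course, and every condition, control included, then received DRB, with RNA taken just before the drug (0 hr) or 1.5 hr, 3 hr or 4.5 hr after 100 ug/ml of it. Tunicamycin blocks N-glycosylation, emetine stops ribosome elongation, UPF1 is the helicase of nonsense-mediated mRNA decay, and DRB inhibits the kinases that release RNA polymerase II into elongation. The labels name no control hairpin, do not say whether the UPF1-depleted cells are a clone or a pool, and do not say whether arrays come from separate cultures.

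Mediator is a modular complex whose head and middle modules contact RNA polymerase II, whose tail binds activators, and whose kinase module (CDK8, cyclin C, MED12 and MED13) attaches and detaches. TFIID consists of TBP and the TAFs and recognises core promoters, while some TAFs or their paralogs serve SAGA or the RNA polymerase I factor SL1 instead. After transcription is blocked, the signal of an mRNA follows its decay, so a transcript that falls faster than the bulk of mRNA shows a negative slope.

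Signals are RMA intensities, which are set relative to the other transcripts of the same array. A slope is therefore a fall or rise relative to the typical transcript, in log2 units per hr, and a positive slope does not mean new synthesis. A member is said to fall, rise or differ where the limma p-value, adjusted by Benjamini-Hochberg over all 14478 genes, was below 0.05. The spread behind each test is the scatter of single arrays about the fitted time courses. UPF1 gave signals of 89.4 to 169.5 on the UPF1-depleted arrays and of 309.9 to 537.5 on the other 16. HSPA5, a target of the unfolded protein response, lay between 13690.4 and 15326.7 with tunicamycin and between 3569.2 and 4902.8 elsewhere. PDK1, a hypoxia target, lay between 955.3 and 1373.2 in hypoxia and between 165.1 and 308.9 elsewhere. Of 9 mesenchymal and osteoblast markers 8 were measured and 6 were above the filter, and the 8 summed to 25627.0 to 32741.3 per array. Most of that sum came from VIM, COL1A1 and SPARC (16802.7, 5891.8 and 4584.2 in control at 0 hr). On the same array CDH2 had 1500.8, RUNX2 143.8, ALPL 99.9, COL1A2 17.4 and TWIST1 9.98, and the epithelial marker EPCAM 245.6. Above the filter were 1 of 4 epithelial markers (sums of 254.7 to 541.3), 2 of 3 endothelial markers (96.8 to 165.1) and 1 of the 2 leukocyte markers measured (29.6 to 49.1). The ratio of 3′ to 5′ ACTB signal, a measure of RNA integrity and of amplification, was 0.55 ± 0.10 in log2 in control (SD, n = 4 arrays), 0.54 ± 0.11 with tunicamycin, 1.24 ± 0.06 in UPF1-depleted cells, 2.04 ± 0.13 in hypoxia and 2.04 ± 0.19 with emetine. For GAPDH the same ratio differed far less. It was 0.04 ± 0.04 in control, 0.0 ± 0.04 with tunicamycin and 0.07 ± 0.02 in UPF1-depleted cells. In hypoxia the GAPDH ratio was 0.15 ± 0.04, and with emetine 0.11 ± 0.03.

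To show the promoters of genes that the results below turn on, the bases just upstream of the start site are given for the 3 steepest falls in control (TAF5, MED17 and MED7), for TAF7, TBP and MED10, and for TAF10, which rose. No motif was tested against a slope. Each line gives 100 bases before the RefSeq transcription start in GRCh38.p14, 5′ to 3′ on the gene's strand. Capitals mark the motifs CCGGAA (the core bound by ETS factors), CCAAT (the NF-Y box), GGGCGG (the GC box), TGACGT (the CRE core), CACGTG (the E box) and TATAAA (the TATA box), searched on both strands, so that CCGCCC is a GC box on the opposite strand.
MED17 (chr11:93784182-93784281, plus strand): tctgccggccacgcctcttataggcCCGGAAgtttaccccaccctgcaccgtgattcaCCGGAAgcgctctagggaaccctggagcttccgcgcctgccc
TAF5 (chr10:103367876-103367975, plus strand): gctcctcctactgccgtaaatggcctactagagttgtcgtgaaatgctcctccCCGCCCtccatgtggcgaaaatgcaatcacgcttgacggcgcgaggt
MED7 (chr5:157142866-157142965, minus strand, the first of 2 annotated starts): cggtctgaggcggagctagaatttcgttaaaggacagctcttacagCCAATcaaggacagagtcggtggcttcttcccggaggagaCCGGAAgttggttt
TAF7 (chr5:141320785-141320884, minus strand): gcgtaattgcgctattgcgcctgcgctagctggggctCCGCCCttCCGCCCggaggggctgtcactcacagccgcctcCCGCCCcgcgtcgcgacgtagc
TBP (chr6:170554269-170554368, plus strand): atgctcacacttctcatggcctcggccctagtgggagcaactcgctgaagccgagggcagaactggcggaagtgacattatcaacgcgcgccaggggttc
MED10 (chr5:6378548-6378647, minus strand): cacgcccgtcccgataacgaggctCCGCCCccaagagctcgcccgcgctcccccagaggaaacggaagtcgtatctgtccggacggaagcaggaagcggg
TAF10 (chr11:6612217-6612316, minus strand): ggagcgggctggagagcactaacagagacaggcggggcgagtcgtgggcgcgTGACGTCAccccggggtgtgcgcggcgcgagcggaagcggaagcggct

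None of the 7 stretches held a TATAAA box, although the 300-base window of MED7 did. MED17 had CCGGAA in 2 places, and MED7 had CCGGAA and CCAAT. Over the 300 bases from 250 before to 50 after the start, 43 of the 54 member genes had a RefSeq window, 52 windows in all. CCGGAA was in 25 of these windows (48.1%), against 24.2% of the windows of all tested genes and 17.2% of all windows. CCAAT was in 46.2% (34.1% of tested genes' windows and 34.6% of all), GGGCGG in 53.8% (62.9% and 45.0%), TGACGT in 15.4% (9.86% and 7.98%), CACGTG in 11.5% (9.02% and 7.26%) and TATAAA in 3 windows, 5.77% (6.86% and 11.5%). The 2 TGACGT matches of TAF10 overlap in 1 palindrome, and a match describes letters, not a bound site.

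In control cells 16 of the 51 tested members fell after DRB (31.4%; 17.5% of all genes tested did) and 4 rose (7.84%; 14.2% of all genes). The 3 steepest falls were those of TAF5 (slope -0.67 ± 0.06 log2 per hr, SE), MED17 (-0.60 ± 0.05) and MED7 (-0.55 ± 0.09), and the 3 steepest rises those of TAF4B (0.14 ± 0.05), TAF6 (0.10 ± 0.03) and TAF10 (0.10 ± 0.02). The median slope was -0.05 over the members and 0.03 over all genes. Mediator subunits gave 9 falls and no rise among 29 tested, and TBP with the TAFs 7 falls and 4 rises among 22. The count rested in part on the ends of the time course, since 10 members were called when the 0 hr control array was left out and 13 when the 4.5 hr one was. With quantile normalization the split was 16 lower and 7 higher, and with arrays centred on 52 ribosomal protein genes it was 20 lower and 2 higher.

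The falls recurred in the other conditions, emetine excepted. In hypoxia 17 members fell (33.3%; 14.2% of all genes) and 2 rose (3.92%; 15.3%). With tunicamycin 13 fell (25.5%; 11.4%) and 7 rose (13.7%; 11% of all genes). In UPF1-depleted cells 14 fell (27.5%; 16.5%) and 2 rose (3.92%; 11% of all genes). With emetine no member passed in either direction, where 0.325% of all genes fell and 0.0691% rose. At an unadjusted p below 0.05 limma gave 6 members there, against 28 in control. Of all 14478 genes it gave 1853 with emetine and 6462 in control. Over all genes the median size of a slope, sign aside, was 0.04 log2 per hr with emetine and 0.07 in control. MED17, MED18, MED26, MED31, MED7, TAF4, TAF5 and TAF7 fell in each of the 4 other conditions, and MED13, MED9 and TBP in 3. TAF10 rose in 4 conditions and TAF6 in 3. The share of all genes that fell or rose in as many conditions was not counted. A gene is also read by the same probe set in every condition. Whether such recurrence is unusual among all genes was therefore not tested.

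Over the 51 members, slopes in control correlated with those in hypoxia (Pearson r 0.96, Spearman rho 0.92), in UPF1-depleted cells (0.96 and 0.93), with tunicamycin (0.89 and 0.70) and with emetine (0.62 and 0.44; Pearson r 0.43 without TAF1D). These correlations run across genes read by the same probe sets in 1 normalized table and are given as a description. Leaving out the 0 hr or the 4.5 hr array of a condition lowered its count of slopes called, to 8 or 9 from 19 in hypoxia, 6 or 9 from 20 with tunicamycin and 8 or 10 from 16 in UPF1-depleted cells.

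**Figure D1:**
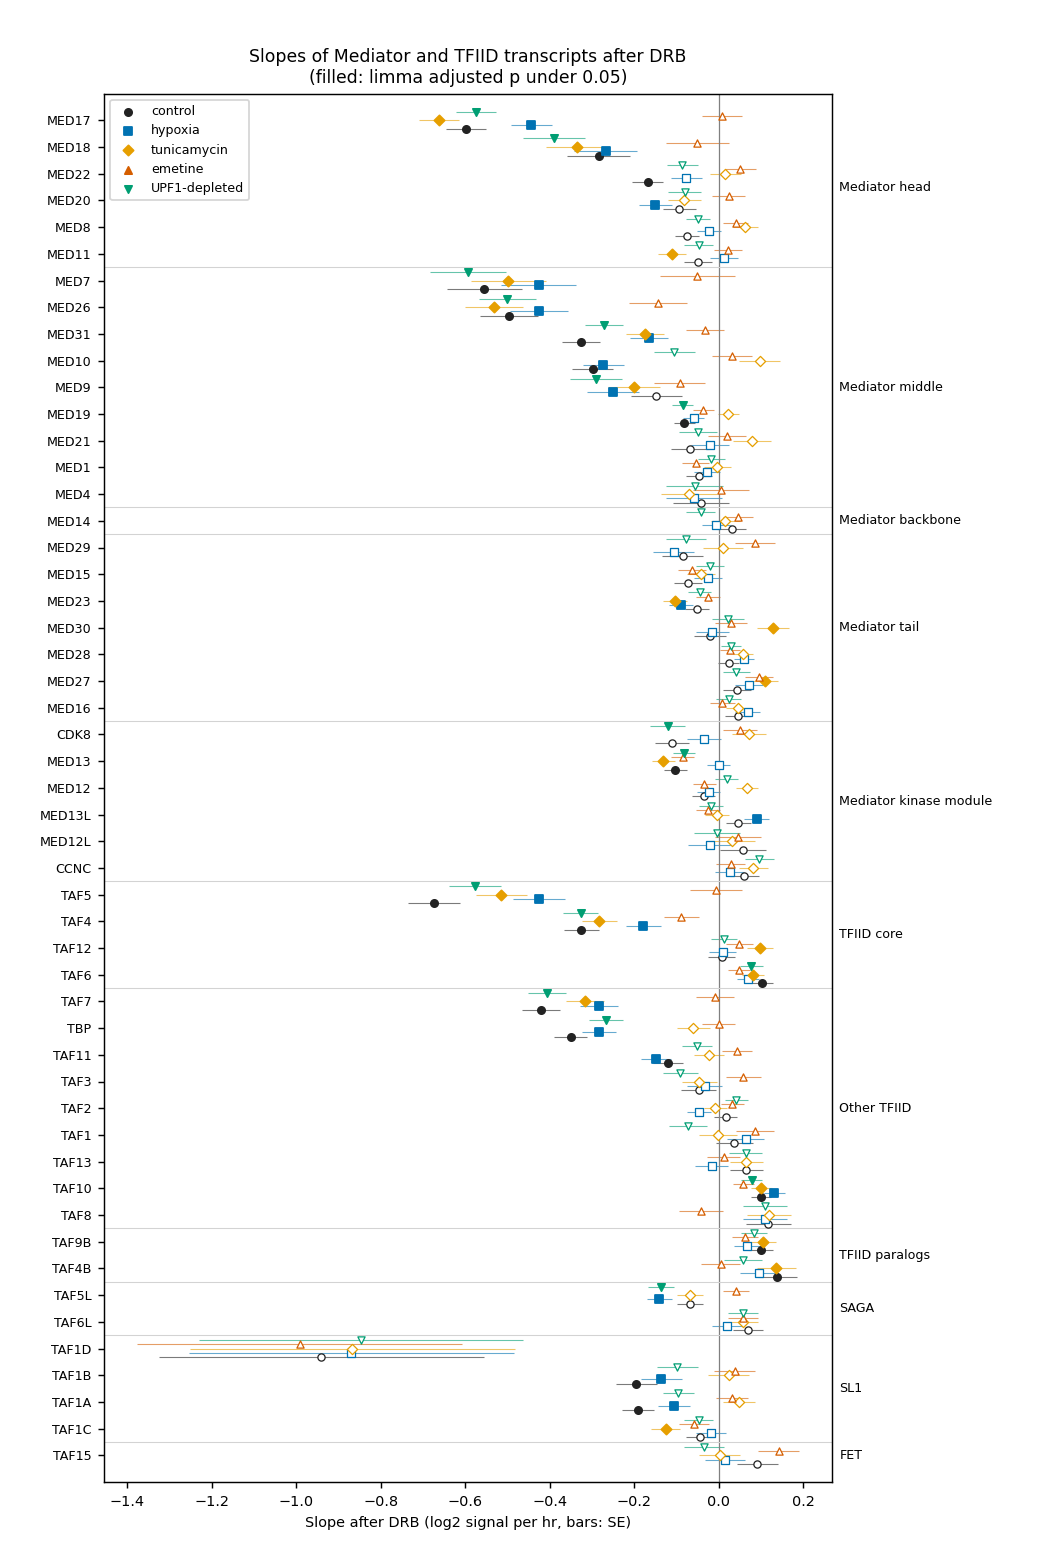
Slope after DRB in log2 signal per hr (x axis) of each of the 51 tested members (y axis, grouped by complex and module), with 1 marker per condition, bars for the SE and filled markers for limma adjusted p below 0.05. TAF5, MED17, MED7 and MED26 lie far to the left in every condition but emetine, whose markers are all open, and the wide bars of TAF1D belong to a course that is not linear.

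In the Mediator head, MED17, the scaffold on which the module is built, showed the steepest course. Its control signals were 548.2 at 0 hr, 365.8 at 1.5 hr, 137.8 at 3 hr and 95.3 at 4.5 hr, so that 17.4% of the first signal was left. Each later array was lower than the one before it, and the same held in hypoxia (693.8, 463.6, 271.1 and 178.4), with tunicamycin (727.5, 454.1, 183.5 and 99.0) and in UPF1-depleted cells (721.8, 508.9, 241.0 and 126.2). With emetine the 4 signals were 1773.5, 1631.8, 1673.6 and 1800.7, all above every array of the other conditions. The slopes were -0.44 ± 0.05 in hypoxia (adjusted p = 3.31e-05, limma), -0.66 ± 0.05 with tunicamycin, -0.57 ± 0.05 in UPF1-depleted cells and 0.01 ± 0.05 with emetine (adjusted p = 0.966, limma). The other probe set of MED17 above the filter was much dimmer, at 50.3, 25.6, 23.1 and 24.8 in control, and its slope of -0.21 ± 0.07 was also called.

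MED18, which sits on the movable part of the head, fell from 213.8 to 87.1 in control (slope -0.28 ± 0.07), and its slopes in hypoxia, with tunicamycin and in UPF1-depleted cells were -0.27, -0.34 and -0.39. MED22 fell in control alone (-0.17 ± 0.04), MED20 in hypoxia alone (-0.15 ± 0.04), and MED11 with tunicamycin alone (-0.11 ± 0.03). None of these 3 had a slope that differed from control outside emetine, so that a call in 1 condition is not a difference between conditions. MED8 passed in no condition.

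The middle module held 5 falling members of 9 in control, where 17.5% of all genes fell. MED7, a hinge protein of the module, had control signals of 562.7, 309.5, 98.0 and 120.8, and MED26, the subunit that recruits elongation factors, had 409.7, 217.8, 98.9 and 95.3. For both genes most of the drop came by 3 hr, and 21.5% and 23.3% of the first signal were left at the end. With emetine MED7 stayed between 399.8 and 464.3, while MED26 went from 1414.8 through 1281.8 and 1035.9 to 922.8 with a slope of -0.14 ± 0.07 that was not called. A further MED7 probe set gave a control slope of -0.54 ± 0.07, and its remaining one -0.01 ± 0.06. The 2 further ones of MED26, with mean control signals of 32.3 and 26.8, gave -0.16 ± 0.10 and 0.03 ± 0.06, neither of them called. With the median over probe sets the control slope of MED26 was -0.13 (adjusted p = 0.298, limma), and with the 0 hr control array left out MED7 had -0.45 (adjusted p = 0.0581).

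MED31, a small subunit at the edge of the middle module, fell in control from 586.0 to 228.6 (-0.33 ± 0.04) and less steeply in hypoxia (-0.17) and with tunicamycin (-0.18), differences from control that were not called. MED10 fell in control (-0.30 ± 0.05) and hypoxia (-0.27 ± 0.05), MED19 in control (-0.08 ± 0.02) and UPF1-depleted cells (-0.09), and MED9 in the 3 stressed or depleted conditions other than emetine (-0.20 to -0.29). The middle subunits MED1, MED4 and MED21 passed in none of the 5. MED1, the docking site for nuclear receptors, had 1235.4, 1279.6, 1050.6 and 1122.0 in control and slopes of -0.05 to 0.00 in the 5 conditions. MED14, the backbone that links head, middle and tail, had 239.7, 251.9, 221.6 and 278.0 in control and slopes of -0.04 to 0.05, none called.

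None of the 7 tail subunits tested passed in control, where 17.5% of all genes fell and 14.2% rose. MED23 fell in hypoxia (-0.09) and with tunicamycin (-0.10), and MED30 (0.13 ± 0.04) and MED27 (0.11 ± 0.03) rose with tunicamycin. In the kinase module MED13, which tethers the kinase to Mediator, fell in control (-0.10 ± 0.03), with tunicamycin (-0.13 ± 0.03) and in UPF1-depleted cells (-0.08 ± 0.03), and its control signals were 2086.3, 1979.4, 1768.8 and 1517.2. CDK8, the kinase itself, fell in UPF1-depleted cells (-0.12 ± 0.04, adjusted p = 0.0395, limma) and had an adjusted p of 0.0507 for a slope of -0.11 in control. The call in UPF1-depleted cells was lost under 9 of 27 alternatives, among them the median over probe sets (-0.03, adjusted p = 0.746). Cyclin C (CCNC) lay between 1946.9 and 2792.7 on the 20 arrays with slopes of 0.03 to 0.10, and MED12, the activator of CDK8, between 153.3 and 240.0 with slopes of -0.04 to 0.07. No slope of either was called.

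Within TFIID the falls were those of the scaffold TAF5, of TAF4, TAF7, TAF11 and TBP. TAF5 had 443.3, 284.8, 99.1 and 61.1 in control, 449.2, 360.4, 182.6 and 128.9 in hypoxia, 416.5, 305.6, 171.0 and 85.0 with tunicamycin and 508.2, 371.7, 217.9 and 82.4 in UPF1-depleted cells. These 4 courses overlapped at the start and ended at 13.8% to 28.7% of the first signal. With emetine it stayed between 948.4 and 972.0. Both TAF5 probe sets gave nearly the same control slope (-0.67 and -0.68).

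TAF7, which holds the acetyltransferase TAF1 in check, had 1582.6, 1355.1, 666.2 and 465.7 in control and 3000.7, 3071.5, 2857.4 and 2986.3 with emetine, so that the emetine arrays lay above all control arrays. Its slope was -0.42 ± 0.04 in control and -0.01 ± 0.04 with emetine. TAF4 fell from 652.8 to 258.1 in control (-0.33 ± 0.04), and TAF11, a histone-fold partner of TAF13, from 713.3 to 527.8 (-0.12 ± 0.04). TAF1 itself had slopes of -0.07 to 0.09, none called, on signals of 242.1, 316.5, 288.6 and 283.6 in control.

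TAF10 and TAF6, histone-fold proteins, were the main risers. TAF10 had 2417.7, 2724.3, 3071.5 and 3276.0 in control, each array above the one before, and slopes of 0.08 to 0.13 in the 4 conditions where it was called. TAF6 had 345.1, 416.3, 445.3 and 481.0. In control both calls were lost without the array at 0 hr (adjusted p = 0.191 and 0.336, limma) or at 4.5 hr (0.0629 and 0.0643). Centring on ribosomal protein genes kept the control slopes of both positive but ended the calls of each in UPF1-depleted cells (adjusted p = 0.132 and 0.131, limma). Of the rises named for TAF4B, TAF9B, MED27, MED30 and MED13L, this centring ended each one, and with tunicamycin no member's rise was left under it. TAF12 also rose with tunicamycin (0.10 ± 0.03). TAF2, TAF3, TAF8 and TAF13 passed in no condition.

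TBP, the TATA-binding protein used by RNA polymerases I, II and III, had another course with tunicamycin. Its control signals were 624.6, 472.2, 337.4 and 207.2, those in hypoxia 519.5, 460.0, 305.0 and 222.7, and those in UPF1-depleted cells 607.0, 498.5, 378.8 and 263.7. In all 3 conditions each array was lower than the one before, and 33.2% to 43.4% of the signal was left. With tunicamycin the signals were 718.3, 843.4, 649.8 and 635.8, all above the highest control array. The slope there was -0.06 ± 0.04, which was not called, and it was higher than in control by 0.29 ± 0.05 log2 per hr (adjusted p = 0.00758, limma).

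**Figure D2:**
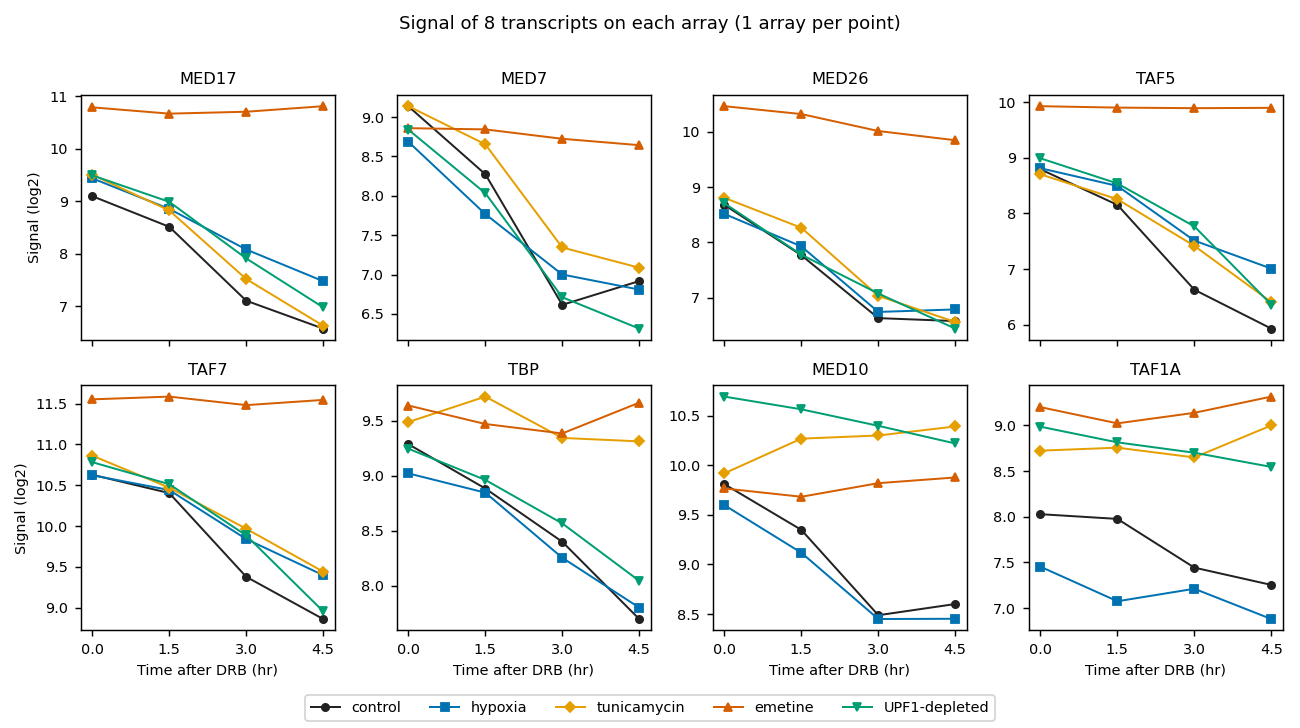
Log2 signal (y axis) against time after DRB in hr (x axis) for 8 members, with 1 point per array and 1 line per condition. MED17, MED26, TAF5 and TAF7 stay high only in emetine, whereas TBP, MED10 and TAF1A also stay high in tunicamycin. In UPF1-depleted cells MED10 and TAF1A lie above every control array too. There 72.1% of the first MED10 signal is left at 4.5 hr, against 43.3% in control. These are values of single arrays, and the MED10 slope in UPF1-depleted cells was not called different from control.

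Tunicamycin changed the slope of 3 members, all upwards (5.88%; 4.66% of all genes went up and 0.58% down). They were MED10, TBP and TAF1A. MED10, at the base of the middle module, had 896.7, 651.8, 359.2 and 388.4 in control and 967.7, 1232.6, 1259.9 and 1341.9 with tunicamycin, so the groups did not overlap. Its slope was 0.10 ± 0.05 with tunicamycin and higher than in control by 0.40 ± 0.06 (adjusted p = 0.00277, limma). TAF1A, a subunit of SL1, had 261.0, 251.8, 174.0 and 152.6 in control and 422.7, 432.3, 401.5 and 511.8 with tunicamycin, and its slope was higher by 0.24 ± 0.05 (adjusted p = 0.0223, limma). The 3 calls rest on end arrays. Without the tunicamycin array at 0 hr none was left, and without the tunicamycin array at 4.5 hr, the control array at 0 hr or that at 4.5 hr 1 was left. For TBP the difference was then 0.23 to 0.31 with adjusted p of 0.0844 to 0.195. The ACTB 3′ to 5′ ratio lay between 0.38 and 0.65 with tunicamycin and between 0.44 and 0.65 in control.

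Emetine raised 14 slopes relative to control (27.5%; 12.8% of all genes) and lowered none (1.58% of all genes). The largest differences were those of TAF5 (0.67 ± 0.07 log2 per hr), MED17 (0.61 ± 0.05) and MED7 (0.50 ± 0.09), followed by TAF7, MED26, TBP, MED10, MED31, TAF4, TAF1B, TAF1A, MED22, MED29 and TAF11 (0.41 down to 0.16). Some of these differences depend on the probe set. Without probe sets ending in _s_at or _x_at that of MED17 was 0.19 (adjusted p = 0.127, limma). With the median over probe sets that of MED26 was -0.013 (adjusted p = 0.947) and that of TAF4 0.06 (adjusted p = 0.489). Of the 14, 7 are Mediator subunits and 7 are TBP or TAFs. All but MED29 had fallen in control. Calls of TAF5, MED17, MED7, TAF7, MED26, TBP and TAF4 were followed singly under the alternatives, and those of TAF5, TAF7 and TBP held under each. The rest of the 14 were not followed singly. Leaving out the 0 hr control array gave 7 calls, and leaving out the 4.5 hr emetine array gave 8. The ACTB 3′ to 5′ ratio lay between 1.79 and 2.23 on the 4 emetine arrays and between 0.44 and 0.65 in control, and its part in these slopes was not tested.

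All level and slope differences share the same 4 control arrays, and in bulk RNA fewer cells of a kind and less RNA per cell cannot be told apart. Emetine changed the level at the time of DRB addition for 25 members. It was higher than in control for 18 (35.3%; 18.9% of all genes) and lower for 7 (13.7%; 19.8% of all genes). The median difference was 0.20 in log2 over the members and -0.08 over all genes. The 3 largest increases were those of MED26 (1.96 ± 0.19 in log2, 3.89-fold, adjusted p = 9.09e-06, limma), MED17 (1.56 ± 0.15, 2.95-fold, adjusted p = 8.76e-06) and MED12L (1.04 ± 0.17, 2.05-fold). Level differences, here and below, are fitted from all 4 times and can depart from those of the 0 hr arrays alone. On these arrays MED26 was 3.45-fold control, MED17 3.24-fold and MED12L 1.96-fold. For MED12L, a paralog of MED12, the control signals of 22.1 to 32.6 lie around the filter, and without the control array at 0 hr the difference was 0.80 (adjusted p = 0.0559, limma). TAF5 (2.03-fold), TAF1A (1.99-fold), MED23 (1.83-fold), TAF7 and TAF1 (each 1.73-fold), MED13 (1.70-fold), TAF2, TAF4B, MED19, MED31, MED1, MED30, TAF3, MED20 and MED13L followed.

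The 3 largest decreases were those of TAF15 (-0.81 ± 0.19), MED22 (-0.63 ± 0.15) and TAF10 (-0.50 ± 0.10), and TAF12, MED8, MED11 and TAF9B were lower as well. On the 0 hr arrays alone the differences were -0.56 for TAF15, -0.49 for MED22 and -0.47 for TAF10. As a mean over the 4 times the difference of MED22 was -0.14 (adjusted p = 0.357, limma), with a signal 1.47-fold that of control at 4.5 hr, and the TAF9B call was lost under 16 of 28 alternatives. TAF15, an RNA-binding protein of the FET family found with part of the TFIID pool, had 888.2, 699.8, 1225.1 and 1202.6 with emetine and 1307.2, 1612.7, 1674.9 and 1768.0 in control, so the groups did not overlap. MED13 had 3520.0, 3492.3, 3074.3 and 2734.5 with emetine, all above its highest control array of 2086.3. These 2 calls held under each alternative. Where a 0 hr array is left out, the level there is extrapolated from later arrays, with less precision. Of level differences 8 were called with the 0 hr control array left out, and 14 with the 0 hr emetine array left out. The count rose to 38 (8 lower and 30 higher) when the difference was taken as a mean over the 4 times. Taken so, 5131 of all 14478 genes were lower and 4115 higher. The high ACTB ratio of all emetine arrays moved with these levels too, and its part was not tested.

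For MED26 and MED17 the size depends on the probe set. With the median over the probe sets of a gene the emetine difference of MED26 was 0.35 (adjusted p = 0.219, limma) and that of MED17 0.24 (adjusted p = 0.393), neither of them called. The brightest MED17 probe set ends in _s_at, a class that can read related transcripts, and without that class the difference was 0.49 (adjusted p = 0.0966). Signals of the dim MED17 probe set were 58.6, 58.7, 47.4 and 58.6 with emetine against 50.3, 25.6, 23.1 and 24.8 in control.

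**Figure D3:**
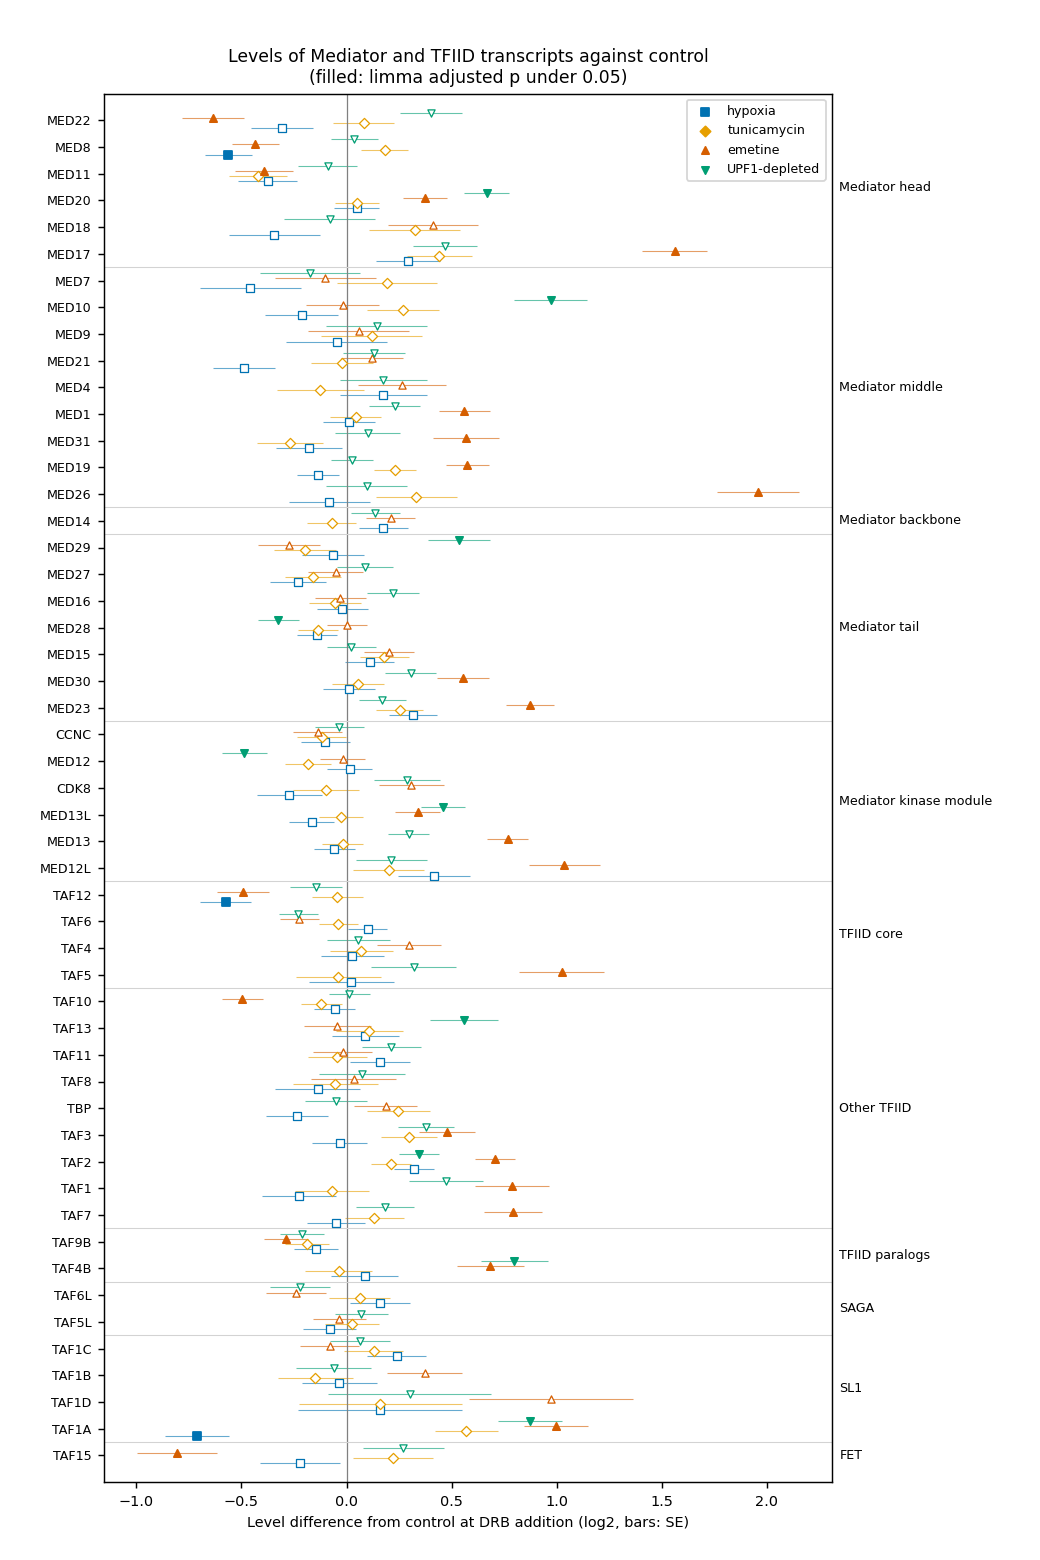
Fitted level difference from control at DRB addition in log2 (x axis) for the 51 tested members (y axis, grouped by complex and module), with 1 marker per condition, bars for the SE and filled markers for limma adjusted p below 0.05. MED26 and MED17 with emetine reach 1.96 and 1.56, and no tunicamycin marker is filled.

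UPF1 depletion gave 8 members with a higher level (15.7%; 9.68% of all genes) and 2 with a lower one (3.92%; 3.99%). MED10 was higher by 0.97 ± 0.17 (1.96-fold, adjusted p = 0.00349, limma), TAF1A by 0.87 ± 0.15 (1.83-fold) and TAF4B by 0.80 ± 0.16 (1.74-fold), followed by MED20, TAF13, MED29, MED13L and TAF2. MED10 had 1653.0, 1512.6, 1348.0 and 1191.6 in the depleted cells, each above the highest control array of 896.7. TAF1A had 506.9, 450.1, 416.1 and 373.6 there, again above all 4 control arrays. The lower levels were those of MED12 (-0.49 ± 0.11) and MED28, a tail subunit (-0.32 ± 0.10). The MED28 call was lost under 21 of 28 alternatives, and without probe sets ending in _s_at or _x_at its difference was 0.053 (adjusted p = 0.818, limma). MED12 had 157.0, 153.3, 156.4 and 166.3 in the depleted cells and 219.0, 196.4, 211.5 and 188.8 in control.

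No call among these 10 was left without the control array at 0 hr or without the UPF1-depleted array at 0 hr, and 6 were left without that at 4.5 hr. Without a 0 hr array the level there is extrapolated from later arrays, with less precision. In that order of 0 hr arrays, the differences were then 1.13 and 1.07 for MED10 and 0.57 and 0.93 for TAF1A. Without probe sets ending in _s_at or _x_at 6 members were called, with the median of probe sets 5, and with the mean over the 4 times 19. As such a mean 5 members were lower and 14 higher, and of all 14478 genes 1980 were lower and 2560 higher. The ACTB ratio of the depleted cells, 1.16 to 1.31, lay above all control arrays, and its part was not tested. No slope of a member differed between UPF1-depleted and control cells by limma, with 1 at an unadjusted p below 0.05 (955 of all 14478 genes). Over all genes 0.00691% had a lower and 0.0345% a higher slope.

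Hypoxia lowered 3 members at DRB addition (5.88%; 4.44% of all genes) and raised none (3.21% of all genes). The differences in log2 were -0.71 ± 0.15 for TAF1A (adjusted p = 0.015, limma), -0.58 ± 0.12 for TAF12 and -0.56 ± 0.11 for MED8. TAF1A had 175.2, 134.8, 148.2 and 117.8 in hypoxia, and its highest array lay above the 2 lowest of control. TAF12, a histone-fold partner of TAF4, had 348.7, 398.7, 364.2 and 370.4 in hypoxia and 543.3, 585.6, 484.0 and 591.5 in control. MED8, which anchors the head module, had 718.1, 736.0, 694.5 and 675.9 in hypoxia and 852.0 to 1081.7 in control. For TAF12 and MED8 the groups did not overlap. All 3 calls were lost without the control or the hypoxia array at 0 hr, and the hypoxia arrays carried the high ACTB ratio (1.94 to 2.23), whose part was not tested.

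No slope of a member differed between hypoxia and control (0% of all genes had a lower and 0.0345% a higher slope), with 6 at an unadjusted p below 0.05. Of all 14478 genes 1498 lay below that p. Tunicamycin changed the level of no member by limma at DRB addition (0.926% of all genes were lower and 1.97% higher). The nearest to a call was TAF1A, at 0.57 ± 0.15 (adjusted p = 0.0685). At an unadjusted p below 0.05 limma gave 7 of the 51 members and 2490 of all 14478 genes. As a mean over the 4 times 12 members were called, 2 lower and 10 higher. Taken so, 1663 of all genes were lower and 1597 higher.

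The SL1 subunits TAF1A, TAF1B, TAF1C and TAF1D serve RNA polymerase I at the ribosomal RNA genes. TAF1B had 289.5, 311.2, 161.4 and 183.2 in control and fell there (-0.20 ± 0.05) and in hypoxia (-0.14 ± 0.05). TAF1C fell with tunicamycin alone (-0.13 ± 0.03), from 403.4 to 273.8. TAF1A fell in control (-0.19 ± 0.04) and hypoxia (-0.11 ± 0.04), and its level stood below control in hypoxia and above it with emetine and UPF1 depletion.

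TAF1D showed the steepest early drop of all members, in every condition. Its signals were 541.9, 20.3, 22.8 and 20 in control, 447.7, 42.3, 24.2 and 26.5 in hypoxia and 578.0, 28.4, 25.3 and 29.7 with tunicamycin. They were 672.6, 72.8, 42.6 and 25.8 with emetine and 626.5, 29.7, 35.5 and 31.4 in UPF1-depleted cells. All 5 arrays at 0 hr stood far above the 15 later ones, which were so dim that the size of the drop is a rough one. At 1.5 hr the control signal was already below the level of the filter, so no exact size of the drop is given. Since the course is not linear, the fitted slopes of -0.85 to -0.99 carried an SE of 0.38 and none was called. The 2 further probe sets annotated to TAF1D carry 8 symbols each, those of small nucleolar RNAs included, and kept far more signal (3536.7, 2328.8, 1982.2 and 2312.2 for 1 of them in control, and 8975.7, 8303.0, 8822.2 and 8359.1 with emetine). The other had 4007.2, 1682.7, 1360.4 and 1452.4 in control, so that 36.2% of its first signal was left, against 65.4% for the one before. The values above come from the 1 TAF1D probe set with a single symbol.

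**Figure D4:**
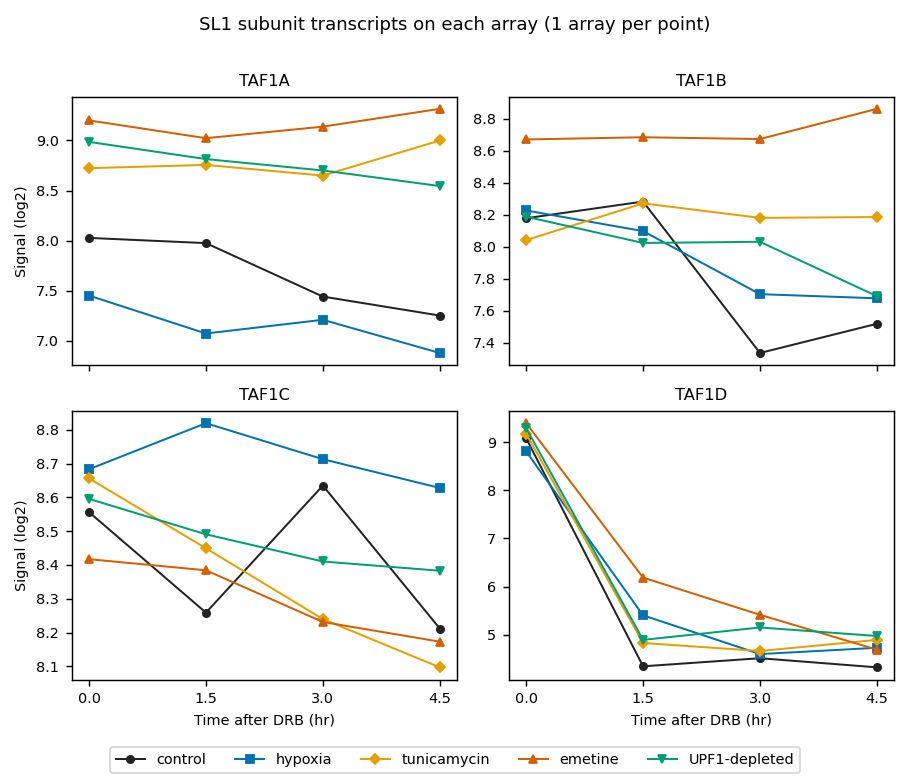
Log2 signal (y axis) against time after DRB in hr (x axis) for the 4 SL1 subunit transcripts, with 1 point per array and 1 line per condition. TAF1D drops between 0 and 1.5 hr in all 5 conditions, emetine included, while TAF1A and TAF1B show no decline with emetine or tunicamycin.

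Pairs of paralogs are given side by side. TAF4 fell and TAF4B, its paralog in germ cells and in other tissues, rose in control (slopes of -0.33 ± 0.04 and 0.14 ± 0.05). TAF4B had 183.5, 252.2, 307.5 and 277.3 in control. TAF5 fell in control while TAF5L, its SAGA counterpart, had a slope of -0.07 ± 0.03 there and fell in hypoxia and UPF1-depleted cells (each -0.14 ± 0.03). TAF6 rose in control, and TAF6L, likewise of SAGA, had slopes of 0.02 to 0.07 and no call. TAF9B rose in control and with tunicamycin (each 0.10 ± 0.03), but the direction hangs on the probe set, and without the _s_at and _x_at class its slopes were -0.11 and -0.25. TAF9 itself shares its probe set with AK6, at 1988.6 to 2586.4 in control. MED13 fell in control and MED13L had a slope of 0.05 ± 0.03 there and rose in hypoxia alone (0.09 ± 0.03). MED12 and MED12L had control slopes of -0.04 ± 0.03 and 0.06 ± 0.05. The difference within a pair was not tested.

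Probe sets of a gene did not always give the same sign. Of the 123 member probe sets above the filter, 22 fell and 8 rose in control (14.2% and 12.4% of all 26962 probe sets tested). Of 37 genes with at least 2 such probe sets, 17 had control slopes of both signs (CDK8, MED13L, MED20, MED23, MED26, MED27, MED28, MED30, MED31, MED4, TAF10, TAF15, TAF3, TAF4, TAF5L, TAF8 and TAF9B). No gene was called in both directions. Slopes of both signs exceeded 0.1 in size only in TAF4 and in TAF9B (lowest -0.247, highest 0.247). The share of genes with both signs was not counted over all genes. TAF4 had -0.33 at 1 probe set and 0.11 at the other, MED31 -0.33 and 0.02. MED14 had 0.03, 0.08 and 0.25, the last at a probe set with a mean control signal of 34.3.

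Other genes of the transcription machinery are described by counts, which were not tested against each other. In control 17.5% of all genes fell and 14.2% rose. Among 24 tested genes of elongation control (P-TEFb, 7SK, NELF, DSIF and the super elongation complex, with the Mediator kinase CDK19 also on the list), 8 fell and none rose in control, with a median slope of -0.08. Among 20 general transcription factors 7 fell and 1 rose (median -0.04), and among 16 partners of SAGA and other acetyltransferases 7 fell and 2 rose (median -0.07). The 12 subunits of RNA polymerase II itself gave no fall and 4 rises (median 0.065). GTF2B, the TFIIB that positions the polymerase, had a control slope of -0.63, close to that of MED17, and the P-TEFb cyclin CCNT1 one of -0.53. With emetine at DRB addition 4 of the polymerase subunits were lower and 1 higher (median -0.21), and 10 elongation genes were higher and 2 lower (median 0.29). Of the general transcription factors 8 were higher and 3 lower (median -0.12). Of the partners of SAGA and other acetyltransferases 5 were higher and 0 lower (median 0.20). Of all genes 19.8% were lower and 18.9% higher.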

How the data were processed

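Total RNA of U2OS cells was extracted with Trizol and read on Affymetrix 3′ arrays, per the labels' protocols. The authors deposited 1 intensity per probe set and array, on a linear scale, made with RMA per the submitters' processing notes. RMA normalizes between arrays, so shared changes, such as a general loss of mRNA, are removed. The array design's annotation named 41097 probe sets with 1 symbol, and 1801 with several and 11777 with none were set aside. Intensities were turned to log2, each gene was read at its brightest probe set, and genes with a mean log2 above 4.70 (40th percentile) were tested. The filter can favour genes that are high in some condition.

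Fits used limma 3.58.1 in R 4.3.3 on all 20 arrays, with Benjamini-Hochberg adjustment and a threshold of 0.05. Slopes came from a line per condition. Level and slope differences came from time as a factor, condition and linear time per condition, and share the control arrays. Fits were tested on simulated data. With 1 array per condition and time, their number limits precision, and p-values measure only the scatter of these arrays, which may be technical. Named were the 3 highest and 3 lowest called members of each comparison and a fixed list of subunits and paralogs. Members and lists were chosen with earlier results of these data known. Promoter sequences are RefSeq's (GRCh38.p14). Alternatives were 2 scalings, 2 filters, other probe-set rules, robust variances, mean levels and each array left out.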

Additional observations from a re-analysis of the deposited data

Results flagged for a closer look

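The slopes of 14 members differed between emetine and control by the interaction test of limma. In log2 per hr, the slope was higher with emetine by 0.67 for TAF5, 0.61 for MED17, 0.50 for MED7, 0.41 for TAF7, 0.35 for MED26 and 0.35 for TBP. It was higher by 0.33 for MED10, 0.29 for MED31, 0.24 for TAF4, 0.23 for TAF1B, 0.22 for TAF1A, 0.22 for MED22, 0.17 for MED29 and 0.16 for TAF11. With tunicamycin it was higher by 0.40 for MED10, 0.29 for TBP and 0.24 for TAF1A.

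In 12 of 255 courses of 4 arrays (4.71%) a single array stood apart from the rest by Dixon's criterion. The criterion's rate of about 1 in 20 by chance holds for replicates. The 4 arrays of a course are different times after DRB, so that rate does not apply and a flag can mark a change over time. TAF1D stood apart at 0 hr in control (541.9), tunicamycin (578.0) and UPF1-depleted cells (626.5). With emetine MED31 was at 946.7 and MED30 at 1140.6 at 0 hr, and TAF1B at 465.2 at 4.5 hr. In hypoxia MED14 was at 273.7 and MED11 at 157.8 at 1.5 hr, and TAF3 at 177.1 at 4.5 hr. With tunicamycin TAF2 was at 2164.1 at 1.5 hr and TAF4B at 170.2 at 0 hr, and MED8 was at 896.2 at 4.5 hr in UPF1-depleted cells.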

How the results depend on the processing

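Of 7244 values of named members under an alternative, 6973 kept their direction and side of the threshold, 191 lost a call, 63 gained one and 17 reversed. Of 76 named calls, 23 held under every alternative, among them the slopes of MED17, TAF5 and TAF7 in the 4 conditions other than emetine. The cause of a change was not tested beyond what an alternative's own construction shows. Signals near the filter limit the sizes for TAF1D and MED12L. The largest shift of the all-gene median by a scaling was -0.0552 in log2 for a level (UPF1-depleted, quantile normalization). For a slope it was -0.0332 log2 per hr (tunicamycin, ribosomal protein centring), which took the median from 0.0295 to -0.0037.

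The counts of members called changed by over 1.5 times as follows. Without probe sets ending in _s_at or _x_at they were 13 for the tunicamycin slope (20 as reported), 1 for the emetine slope (0), 6 for the UPF1-depleted level (10) and 8 for the emetine slope difference (14). With the median of probe sets they were 12, 12, 1 and 10 for the slopes in hypoxia (19), tunicamycin, emetine and UPF1-depleted cells (16), 5 for the hypoxia level (3), 5 for the UPF1-depleted level and 5 for the tunicamycin slope difference (3). A filter at the 60th percentile gave 5 for the hypoxia level, 1 for the tunicamycin level (0) and 5 for the tunicamycin slope difference, and trend and robust variances 5, 1 and 8. Quantile normalization gave 1 tunicamycin level. Means over the 4 times gave 8, 12, 38 and 19 levels in hypoxia, tunicamycin, emetine (25) and UPF1-depleted cells. In hypoxia 1437 of all 14478 genes were lower as a mean and 1446 higher. With 1 array left out, counts were 10 to 25 for the control slope (20), 8 to 19 in hypoxia, 6 to 21 in tunicamycin, 0 to 0 in emetine and 8 to 19 in UPF1-depleted cells. For levels they were 0 to 4 in hypoxia, 0 to 1 in tunicamycin, 8 to 25 in emetine and 0 to 12 in UPF1-depleted cells, and for slope differences 7 to 17 in emetine, 0 to 5 in tunicamycin, and 0 in hypoxia and UPF1-depleted cells, where no alternative gave a call. Splits of slopes (lower and higher) were 18 and 1 in hypoxia, 14 and 0 in tunicamycin and 16 and 0 in UPF1-depleted cells with ribosomal protein centring, and 15 and 5, 12 and 9, and 12 and 7 with quantile normalization.

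Reversals came mostly from the choice of probe set. Without the _s_at and _x_at class and with the median of probe sets, in that order, the slopes of TAF9B were -0.11 and -0.056 in control and -0.25 and -0.18 in tunicamycin, those of MED14 0.30 and 0.30 in hypoxia and 0.24 and 0.24 in UPF1-depleted cells, the hypoxia level difference of TAF9B 1.09 and 1.13, and the emetine level difference of MED14 -0.57 and -0.51. With the median alone the hypoxia slope of TAF4 was 0.011, the emetine level difference of CCNC 0.86 and the emetine slope difference of MED26 -0.013. Without the class alone the UPF1-depleted level difference of MED28 was 0.053. Without the tunicamycin array at 0 hr the slope of TAF4B there was -0.0042.

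No paired analysis was possible because same-numbered arrays share a time after DRB and the labels tie them to no common culture or batch. Time is a factor in the fits of level and slope differences and a line per condition in the slope fits.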
